A study of Mus musculus with 2 samples.

Results

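The S100 genes encode small calcium-binding proteins, and 8 of them were described here in GL261 mouse glioma cells: S100a1, S100a4, S100a6, S100a10, S100a11, S100a13, S100a16 and S100b. The 8 genes were chosen by their symbols from the 32285 genes of the count tables, with earlier results on their measured levels in view, so the direction of their differences is a description and carries no test. S100 proteins are built around a pair of EF-hands, the helix-loop-helix motif that holds a calcium ion, and most work as dimers that change shape when calcium rises and then grip a partner protein. Different members dock to annexins at the membrane, to non-muscle myosin, to ubiquitin ligase adaptors or to channels, and several are released and bind receptors outside the cell. In brain tissue S100b is best known as a protein of glia, while S100a4 and S100a6 are commonly linked to motile and mesenchymal cells.

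The data are single-cell RNA sequencing (scRNA-Seq) of GL261, a glioma line of the C57BL/6 mouse strain that the labels call an astrocytoma. Adherent cells grew in DMEM with 10% fetal bovine serum (FBS) and 1 library was made from them. Neurosphere cells grew as floating spheres in that same serum medium plus 20 ng/mL each of Epidermal Growth Factor and Fibroblast Growth Factor, with B-27 at 1:50, for 12 days, and 1 library was made from them as well. The labels give trypsin for both, with the neurospheres also triturated through pipettes. The study's Methods name trypsin for the adherent cells only. Both were frozen with DMSO before library construction. Culture, dissociation and library cannot be told apart.

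Each value is a count of unique molecular identifiers (UMIs), 1 per captured molecule in a 3’ protocol, and levels were not divided by gene length. Whether intronic reads were counted is not given in the sources used here, and with them a longer gene can collect more UMIs, so the order of levels between genes is that of these counts. Of 5764 adherent and 4951 neurosphere barcodes called as cells, 5051 and 4276 were kept here, where genes were removed before cells were filtered by the thresholds of the study, with a median of 8260 and 13198.5 UMIs per cell. Filtering cells before removing genes kept 5073 and 4300. These latter are the cell numbers that the study states, and that order was run as an alternative. The UMIs of the 5051 and 4276 cells on the 32171 genes left were summed per library (46290996 adherent and 64943938 neurosphere UMIs) and each gene's sum was scaled by that total to a level in CPM. Log2 fold changes compare the neurosphere level with the adherent level and are negative where the neurosphere level was lower. With 1 library per culture no difference has a replicate check and no test was run, and all 95% intervals cover counting error only. Of 8 astrocyte markers, read because the labels call the line an astrocytoma, Slc1a3 had 17148 adherent and 5231 neurosphere UMIs, Gja1 951 and 528, Aldoc 525 and 1111 and Aldh1l1 168 and 350. Gfap had 30 and 27, Slc1a2 4 and 2, and Aqp4 and Sox9 had 0 in both. The pan-immune gene Ptprc had 1 adherent and 0 neurosphere UMIs, and 9 barcodes were shared by the kept cells of both libraries.

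Of the 8 members, 4 were over 2-fold lower in neurosphere cells (S100a4, S100a6, S100a10 and S100a11) and 0 were over 2-fold higher. Among the 14654 genes that had 50 or more UMIs in the libraries together, 11.7% were over 2-fold lower and 21.7% over 2-fold higher. Over all 23649 genes with a UMI in either library the shares were 19.1% and 28.6%. The median log2 fold change was -1.59 over the 8 members and 0.32 over those 14654 genes. Summed over the 8 members, the adherent level was 10378 CPM and the neurosphere level 1629 CPM. Alongside this, the median mitochondrial share of kept cells was 2.02% in adherent and 3.97% in neurosphere cells. Of 6 stress genes (Atf3, Ddit3, Nupr1, Slc7a11, Trib3 and Chac1), 5 were over 2-fold lower in neurosphere cells, and their summed level was 782 and 178 CPM. Of the 5 measured genes of the 8-gene mesenchymal list, 2 were over 2-fold lower and 3 over 2-fold higher. Their median log2 fold change was 2.96, whereas the summed level of the list went the other way, at 5638 and 2281 CPM. Other lists had higher sums in neurosphere cells, with 3 of 3 measured epithelial genes (summed level 25.9 and 3174 CPM), 5 of 8 oligodendrocyte lineage genes (795 and 3066 CPM) and 5 of 7 cartilage genes (649 and 3336 CPM) over 2-fold higher. In the oligodendrocyte lineage list 1 gene, Mbp, was over 2-fold lower (-1.04), and in the cartilage list Matn1 had 0 adherent UMIs and was counted by a limit of 3 counts. The part of these differences in the S100 levels was not tested.

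**Figure D1:**
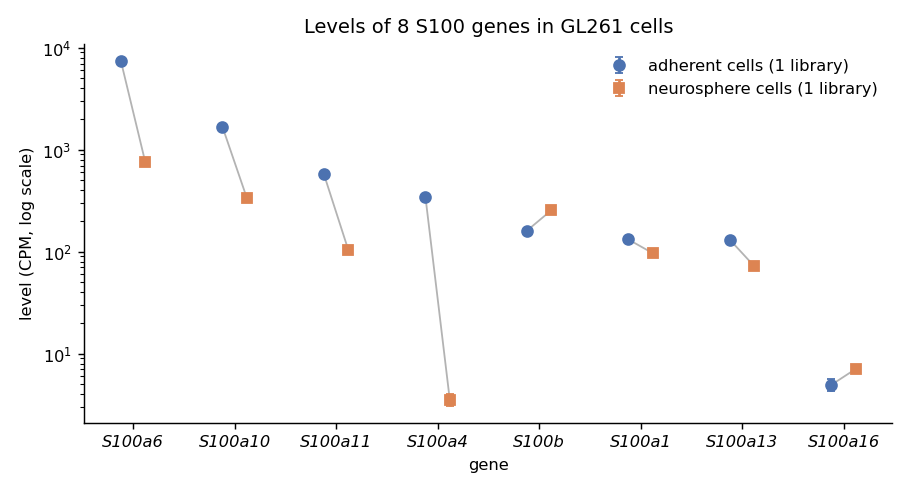
Level of each of the 8 S100 genes in CPM (log axis) in the adherent library (circles) and the neurosphere library (squares), with exact Poisson 95% intervals that are mostly smaller than the symbols. S100a6 was highest in both cultures, S100a4 had the widest gap between cultures (346 and 3.54 CPM), and S100b and S100a16 were the members with a higher neurosphere level.

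S100a6 (calcyclin), whose known partner is the calcyclin-binding protein of a ubiquitin ligase complex, was the most abundant member in both cultures. It had 340390 UMIs in adherent cells (7353 CPM, 95% interval 7329 to 7378) and 48931 in neurosphere cells (753 CPM, 747 to 760). Its log2 fold change was -3.29 (-3.30 to -3.27), a 9.76-fold lower level in neurosphere cells. S100a6 alone made up 70.9% of the UMIs of the 8 members in adherent cells and 46.3% in neurosphere cells, so it led the family in both but by less in neurospheres.

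S100a4 (metastasin), which binds non-muscle myosin IIA and is known from motile cells, showed the largest difference of the 8. It had 16012 UMIs in adherent cells (346 CPM, 341 to 351) and 230 UMIs in neurosphere cells (3.54 CPM, 3.10 to 4.03). The log2 fold change was -6.61 (-6.80 to -6.42), or 97.7-fold, and 12 of the 14654 genes had a lower one. It made up 3.33% of the UMIs of the 8 members in adherent cells and 0.217% in neurosphere cells. An annotated gene model, Gm42674, overlaps S100a4 on the same strand and was not analysed here.

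S100a10, also called p11, is the light chain of the annexin A2 tetramer and has lost the ability to bind calcium. Its level was 1677 CPM in adherent cells (77620 UMIs) and 337 CPM in neurosphere cells (21892 UMIs), with a log2 fold change of -2.31 (-2.34 to -2.29). It was the next most abundant member after S100a6 in both cultures. S100a11, which pairs with annexin A1, had 574 CPM in adherent cells (26576 UMIs) and 104 CPM in neurosphere cells (6768 UMIs), with a log2 fold change of -2.46 (-2.50 to -2.42). A processed pseudogene of S100a11 is annotated on chromosome 12, so reads shared with it are a source of uncertainty for this member.

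S100b, the glial member, went the other way. Its level was 161 CPM in adherent cells (7437 UMIs, 157 to 164) and 255 CPM in neurosphere cells (16535 UMIs, 251 to 259), with a log2 fold change of 0.66 (0.62 to 0.70). It made up 1.55% of the UMIs of the 8 members in adherent cells (95% binomial interval 1.51 to 1.58) and 15.6% in neurosphere cells (15.4 to 15.9), where it was the third most abundant member. S100b overlaps Dip2a, which is on the opposite strand.

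The remaining members differed by less than 2-fold. S100a1, a regulator of calcium release channels and calcium pumps in muscle, had 132 CPM (6100 UMIs) when adherent and 96.7 CPM (6281 UMIs) in neurospheres, with a log2 fold change of -0.45. S100a13, which takes part in the release of FGF1 outside the classical secretory route, had 131 CPM (6058 UMIs) and 72.2 CPM (4687 UMIs), a log2 fold change of -0.86. S100a16, an S100 protein of broad tissue distribution, was rare at 4.95 CPM (229 UMIs) and 7.08 CPM (460 UMIs), with a log2 fold change of 0.52 (0.29 to 0.75). In adherent cells S100a1 (128 to 135 CPM) and S100a13 (128 to 134 CPM) could not be ordered beyond counting error, whereas in neurosphere cells S100a11 (102 to 107 CPM) was above S100a1 (94.3 to 99.1 CPM) and S100a13 was below both.

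The share of cells with a UMI followed the same pattern. To compare cells at 1 depth, each kept cell was thinned at random to 5000 UMIs, which left 4464 adherent cells (587 were too shallow) and 4196 neurosphere cells (80 too shallow). S100a6 was found in 100% of thinned adherent cells and in 44.7% of thinned neurosphere cells (43.2 to 46.3), and without thinning in 99.9% and 59.2%. S100a4 was found in 59.5% of thinned adherent cells and in 1.05% of thinned neurosphere cells (0.763 to 1.41), and without thinning in 69.5% and 2.62%. Both genes were therefore less widely detected in neurosphere cells at equal depth. S100a10 went from 99.9% to 54.3% of thinned cells and S100a11 from 88.2% to 36.8%. S100b went from 48.8% to 62.7%. S100a1 went from 44.7% to 38.2%, S100a13 from 44.6% to 29.8%, and S100a16 stayed near the level of single UMIs (2.37% and 3.03%).

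Among neurosphere cells S100a6 was unevenly spread. In thinned cells its median was 0 UMIs with a mean of 3.46, the 90th percentile was 9, the 99th 48.05 and the highest cell had 158. In thinned adherent cells the median was 32 with a mean of 36.6, the 10th percentile was 16 and the lowest cell had 2. The ratio of variance to mean, which is 1 for Poisson counts, was 27.3 in neurosphere cells, the 10th highest of 8920 genes with a mean of at least 0.05 UMI. In adherent cells it was 13.5, the 7th highest of 8081 genes. At 5000 UMIs per cell, S100a6 had no UMI in 55.3% of neurosphere cells, where a Poisson spread around the same mean would leave 3.13% without a UMI. Cells with 1 or 2 UMIs of S100a6 and cells with free RNA of it cannot be told apart, since no cells here are known to lack the gene.

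The S100a6 UMIs of neurospheres were held by few cells. The top 10% of thinned neurosphere cells (420 cells) held 71.8% of them, whereas the top 10% of adherent cells (447 cells) held 23.1%. At or above the adherent 10th percentile of 16 UMIs lay 249 neurosphere cells, 5.93% (5.24 to 6.69), and at or above the adherent median of 32 lay 87 cells, 2.07% (1.66 to 2.55). At or above the lowest adherent cell, with 2 UMIs, lay 1289 neurosphere cells, 30.7% (29.3 to 32.1). The ranges of the cultures thus overlapped, and few neurosphere cells reached the adherent median. S100a10 (ratio of variance to mean 3.68) and S100b (2.77) were less uneven in neurosphere cells than S100a6.

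**Figure D2:**
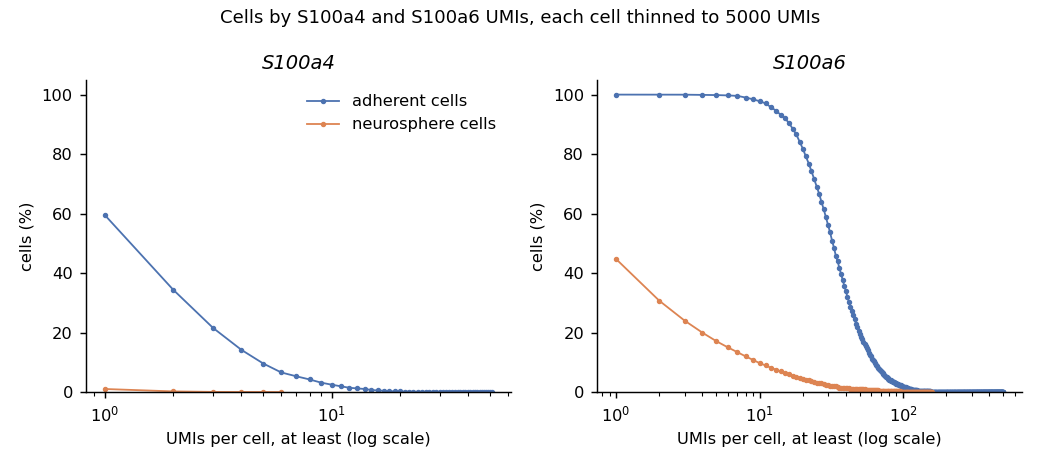
Share of cells (percent) with at least the number of UMIs on the x axis (log scale) of S100a4 (left) and S100a6 (right), each cell thinned to 5000 UMIs, for 4464 adherent and 4196 neurosphere cells. At 1 UMI the S100a6 curves stand at 100% and 44.7% and the S100a4 curves at 59.5% and 1.05%, and the neurosphere S100a6 curve has a long tail up to 158 UMIs.

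S100a4 was rare enough in neurospheres to be followed cell by cell. Its 230 UMIs came from 112 of the 4276 kept cells, of which 75 had 1 UMI and 14 had at least 5. The cell with most had 19 UMIs, and the 10 cells with most held 77 UMIs, 33.5% of the total. Single UMIs of S100a4 and free RNA cannot be told apart in these cells. In adherent cells S100a4 was uneven too, with a median of 1 UMI, a highest value of 51, a ratio of variance to mean of 4.82 and 40.5% of thinned cells without a UMI, against 17.9% for a Poisson spread around the same mean of 1.72.

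The S100 members moved together in part from cell to cell. Thinned neurosphere cells were divided by their S100a6 UMIs into 2319 cells with none, 868 with 1 to 2, 600 with 3 to 9 and 409 with 10 or more. The mean of S100a10 was 0.721, 1.21, 2.13 and 4.48 UMIs in these 4 bins, and the share of cells with S100a4 was 0.0862%, 0.115%, 1.17% and 8.31%. The mean rose over the bins for S100a11 (0.414, 0.502, 0.593 and 1.19 UMIs), S100a13 (0.310, 0.396, 0.457 and 0.716) and S100a1 (0.482, 0.597, 0.602 and 0.704). S100a16 was rare in all of them (0.0241, 0.0461, 0.0817 and 0.0465). The mean of S100b was 1.70, 1.84, 1.46 and 0.971 UMIs, lowest where S100a6 was highest. The median mitochondrial share was alike in the bins (3.97%, 3.96%, 3.95% and 4.0%). The median number of UMIs per cell before thinning was 12400, 13962.5, 15708.5 and 14901, and the mean of Top2a, a gene of dividing cells, was 1.35, 1.17, 1.13 and 0.699 UMIs. Over the same cells S100a6 had a Spearman correlation of -0.28 with the summed cartilage list, -0.21 with the oligodendrocyte lineage list, 0.23 with the epithelial list, 0.16 with the mesenchymal list, 0.15 with the immune list and -0.04 with the G2/M list, and 0.17 with the UMIs of the cell before thinning. The part of these and of depth in the pattern was not tested.

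The 44 thinned neurosphere cells with an S100a4 UMI showed the same company. S100a6 was found in 95.5% of them (84.5 to 99.4) with a mean of 35.9 UMIs, against 44.2% with a mean of 3.12 in the 4152 cells without S100a4. S100a10 was found in 93.2% against 53.9%, and S100b in 36.4% (22.4 to 52.2) against 62.9%. The adherent mean of S100a6 was 36.6 UMIs. Means in the 44 cells and in thinned adherent cells were 6.09 and 8.36 for S100a10, and 1.77 and 2.89 for S100a11. They were 0.523 and 0.665 for S100a1, 0.682 and 0.633 for S100a13, 0.0682 and 0.0271 for S100a16, and 0.773 and 0.829 for S100b. The means of the 44 cells carry no interval. Other adherent genes nearly lost in neurospheres, taken from earlier results of these data, were rare in neurosphere cells with and without S100a4. Ly6a, a surface antigen, was in 2 of the 44 cells with S100a4, 4.55% (0.555 to 15.5), and in 2 of the 4152 cells without it, 0.0482% (0.00583 to 0.174). Klk8, a protease, Vgf, a secreted neuropeptide precursor, and Plscr2, a scramblase, were each in 1 of the 44 cells, 2.27% (0.0575 to 12.0), against 0.385%, 0.530% and 1.23% of the cells without S100a4, values within that interval. With so few cells this split cannot tell these shares apart. In the larger bins by S100a6, from none to 10 or more UMIs, Vgf was in 0.129%, 0.346%, 0.667% and 3.18% of cells. Klk8 was in 0.172%, 0.346%, 0.833% and 1.22%, Plscr2 in 0.862%, 1.04%, 2.17% and 2.44%, and Ly6a in 0.0431%, 0%, 0.333% and 0.244%.

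Rank correlations over thinned cells give the same picture and are descriptions over cells that share a library. In adherent cells (n = 4464) the highest Spearman correlation between members was S100a4 with S100a6 at 0.42, followed by S100a6 with S100a10 at 0.29. In neurosphere cells (n = 4196) S100a6 with S100a10 stood at 0.40, and the lowest was S100a10 with S100b at -0.25. S100a1, which lies next to S100a13 in the genome, had a correlation of 0.08 with it in adherent and 0.12 in neurosphere cells, too weak in such sparse counts to be a finding.

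The genes other than S100 most like S100a6 across neurosphere cells, among 8739 genes found in at least 5% of cells, were Lgals1 (0.43) and Lgals3 (0.41), which encode galectins, Cpe (0.39), a prohormone carboxypeptidase, Syt4 (0.38), a synaptotagmin, and Cstb (0.36), a protease inhibitor. The lowest were Col11a1 (-0.29), a cartilage collagen, Sncaip (-0.25) and Enah (-0.25), a regulator of actin. In adherent cells, among 7964 genes, S100a6 was most like Lgals3 (0.34), Sat1 (0.27), Cd63 (0.26), Timp1 (0.26) and Lgals1 (0.24), and least like Ncl (-0.18), Set (-0.18) and Hmgb2 (-0.17). Lgals1 and Lgals3 were on both lists. For S100a4 the highest value was Tm4sf1 in both cultures, at 0.17 in adherent and 0.12 in neurosphere cells, and both are weak.

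Neurosphere cells were clustered without any S100 gene among the variable genes, which gave 11 clusters, numbered from 0 and described by their leading genes without cell type names. S100a6 ranged from 164 CPM in cluster 1 (led by the mitosis genes Depdc1b, Aspm and Cenpe) to 1450 CPM in cluster 4 (Wnt7b, Phlda2, Reln) and 3437 CPM in cluster 5 (Chit1, Nppb, Cxcl10). Clusters 4 and 5 together were 865 cells, 20.2% of the kept cells, and held 69.7% of the S100a6 UMIs. They also held 190 of the 230 S100a4 UMIs. Across the adherent clusters of at least 100 cells the range of S100a6 was 5583 to 9457 CPM, so the highest neurosphere cluster was below the lowest of these adherent clusters.

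S100a4 and S100a10 had their highest levels in the same neurosphere cluster as S100a6. S100a4 was 22.6 CPM in cluster 5 (126 UMIs, 18.9 to 26.9), 8.71 CPM in cluster 10 (16 UMIs; leading genes Tnnt3, Lpcat2 and Fabp7) and 6.20 CPM in cluster 4 (64 UMIs). It was not found in cluster 7 (0 UMIs, which by a limit of 3 counts allows up to 0.922 CPM) or cluster 9 (0 UMIs, up to 2.03 CPM by the same limit), and clusters 1 and 3 had 1 UMI each. Cluster 1 nevertheless had 1785 UMIs of S100a6, so the ratio of these 2 genes was not the same in all clusters. S100a10 was 795 CPM in cluster 5 and 756 CPM in cluster 4 and lowest in cluster 7 at 79.6 CPM. S100a11 was highest in cluster 5 (251 CPM) and lowest in cluster 3 (63.4 CPM).

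**Figure D3:**
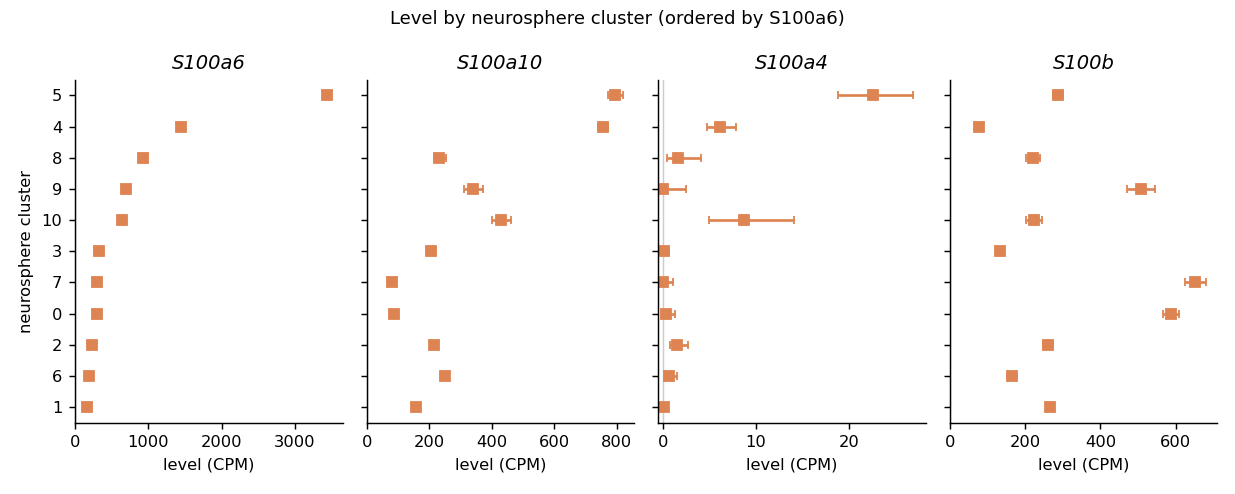
Level in CPM of S100a6, S100a10, S100a4 and S100b in the 11 neurosphere clusters, ordered by S100a6, with exact Poisson 95% intervals, which for the 0 UMIs of S100a4 in clusters 7 and 9 reach 1.13 and 2.50 CPM. S100a6, S100a10 and S100a4 were highest in cluster 5, while S100b was highest in clusters 7 and 0 (652 and 587 CPM) and lowest in cluster 4 (77.8 CPM).

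S100b was distributed otherwise. It was highest in cluster 7 at 652 CPM (led by Enpp2, Mbp and Lsamp) and in cluster 0 at 587 CPM (led by Comp, Pdzd2 and Mucl2), and lowest in cluster 4 at 77.8 CPM. Cluster 7 was also highest for S100a1 (197 CPM, 182 to 213), S100a13 (133 CPM, 121 to 147) and S100a16 (33.5 CPM, 27.5 to 40.4). For S100a16 the next cluster was cluster 1 at 15.8 CPM and the lowest was cluster 8 at 1.21 CPM (3 UMIs). Among the 8 members, therefore, S100a6, S100a10, S100a4 and S100a11 had their highest level in cluster 5 and the other 4 in cluster 7, although the intervals of cluster 7 overlapped those of cluster 9 for S100a1 (141 to 183 CPM) and of cluster 5 for S100a13 (114 to 133 CPM). For S100a10 the intervals of clusters 5 (771 to 818 CPM) and 4 (739 to 773 CPM) overlapped as well. Cluster 7 had a median of 8422.5 UMIs and 4.79% mitochondrial UMIs and cluster 5 a median of 11793.5 UMIs and 4.62%.

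The difference between cultures depended on these clusters in size but not in direction for the 4 members that were lower. Within clusters 4 and 5 alone the log2 fold change against all adherent cells was -1.78 for S100a6, -4.86 for S100a4, -1.12 for S100a10 and -1.86 for S100a11. Over the other clusters it was -4.60, -8.73, -3.09 and -2.73. For S100b it was -0.09 (-0.15 to -0.02) within clusters 4 and 5 and 0.84 over the others, and for S100a16 it was -0.74 (-1.23 to -0.28) and 0.77. The clusters were picked by their S100a6 level, so these values describe how the members were distributed and are no test.

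Adherent clusters of at least 100 cells differed less. The ratio of the highest to the lowest cluster was 1.69 for S100a6, 1.46 for S100a10, 1.36 for S100a11, 2.74 for S100a4 and 4.0 for S100b, against 20.9 for S100a6, 9.98 for S100a10, 3.97 for S100a11 and 8.38 for S100b in neurospheres. In adherent cells S100a4 was highest in cluster 0 (491 CPM; led by Col2a1, 9130015A21Rik and Adgrl3) and lowest in cluster 9 (179 CPM), which was led by Ly6a. Cluster 9 was also the lowest for S100b (62.3 CPM). A further adherent cluster of 46 cells with 12.4% mitochondrial UMIs had 1862 CPM of S100a6.

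S100a1, S100a13, S100a16, S100a4, S100a6, S100a11 and S100a10 lie on chromosome 3 in that order (GRCm38, the build also named mm10), within a stretch that also holds the other S100a genes of the mouse tables. It runs over 3053610 bases, from 90511034 to 93564643, and holds 80 annotated genes of the tables, of which 14 are S100 genes. S100b lies alone at chr10:76253853-76261159 on the plus strand. The S100a4 gene (chr3:90603771-90606045) and the S100a6 gene (chr3:90612882-90624181) are neighbours on the plus strand, 6836 bases apart with S100a5 between them. S100a11 (chr3:93520488-93526287) and S100a10 (chr3:93555080-93564643) are 28792 bases apart, also both on the plus strand. Neighbours differed in size of change, with log2 fold changes of -6.61 and -3.29 for the first of these pairs and -2.46 and -2.31 for the second.

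**Figure D4:**
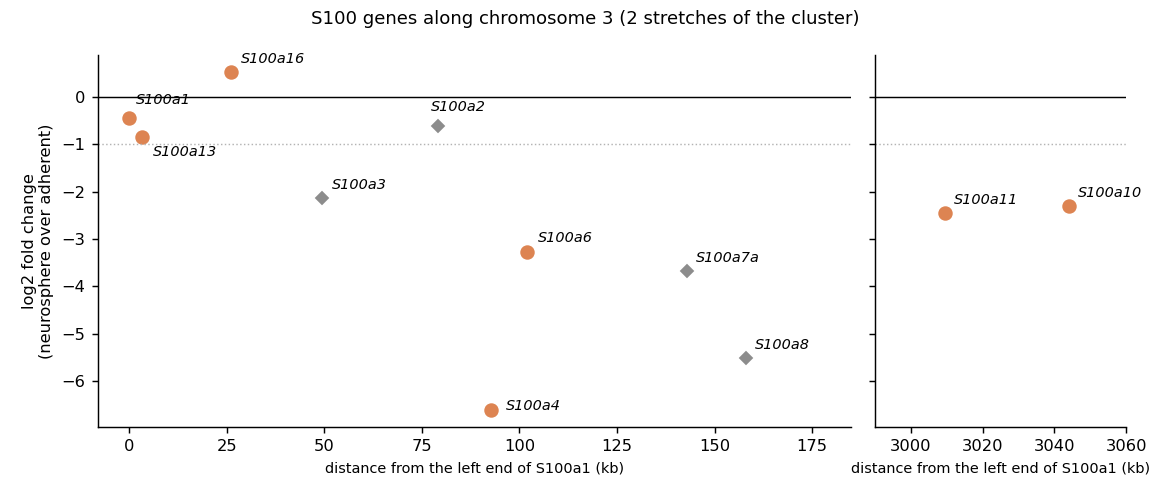
Log2 fold change (neurosphere over adherent) of the S100 genes of chromosome 3 with at least 50 UMIs, against distance in kb from the left end of S100a1, in 2 stretches with the region between them left out. Circles are the members, diamonds the other S100 genes, and the dotted line is a 2-fold lower level. S100a4 at -6.61 and S100a6 at -3.29 lie close together, and S100a16 at 0.52 is the only gene plotted above 0.

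S100a1 (chr3:90511034-90514392, minus strand) and S100a13 (chr3:90514435-90524581, plus strand) are divergent neighbours whose annotated ends are 42 bases apart. The bases between them (chr3:90514393-90514434, plus strand, GRCm38.p6) are shown because both genes start at this gap. The capitals mark its single CG dinucleotide.
S100a1-S100a13 gap: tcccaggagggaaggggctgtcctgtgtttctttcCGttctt
The levels of these genes were close in adherent cells (132 and 131 CPM) and their log2 fold changes were -0.45 and -0.86.

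Of the 8 members, 7 had an entry in the RefSeq promoter table (GRCm38.p6), and S100a10 had none. The bases before the start of S100a4, S100a6 and S100a11 are shown because these members had the lowest log2 fold changes, and those of S100b as a member that was higher, each cut off at the annotated gene body. They are chr3:90603520-90603769, chr3:90612644-90612881, chr3:93520246-93520487 and chr10:76253586-76253835, all on the plus strand. Capitals mark matches on either strand to TGANTCA (the AP-1 motif, which reads the same on both strands), CATTCC (the TEAD motif) or TATAAA (the TATA box).
S100a4: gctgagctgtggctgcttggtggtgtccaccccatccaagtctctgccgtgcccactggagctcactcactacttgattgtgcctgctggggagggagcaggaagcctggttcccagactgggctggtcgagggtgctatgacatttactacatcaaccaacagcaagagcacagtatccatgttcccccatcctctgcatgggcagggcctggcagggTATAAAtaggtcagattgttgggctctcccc
S100a6: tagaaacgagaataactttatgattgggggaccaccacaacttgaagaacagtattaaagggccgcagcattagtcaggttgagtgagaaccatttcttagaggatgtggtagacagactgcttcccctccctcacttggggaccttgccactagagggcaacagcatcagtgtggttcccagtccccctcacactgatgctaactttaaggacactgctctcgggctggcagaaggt
S100a11: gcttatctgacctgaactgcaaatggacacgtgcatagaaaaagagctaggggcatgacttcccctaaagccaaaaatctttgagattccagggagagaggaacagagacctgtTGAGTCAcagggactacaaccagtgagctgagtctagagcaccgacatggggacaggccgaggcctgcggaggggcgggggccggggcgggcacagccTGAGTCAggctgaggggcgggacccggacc
S100b: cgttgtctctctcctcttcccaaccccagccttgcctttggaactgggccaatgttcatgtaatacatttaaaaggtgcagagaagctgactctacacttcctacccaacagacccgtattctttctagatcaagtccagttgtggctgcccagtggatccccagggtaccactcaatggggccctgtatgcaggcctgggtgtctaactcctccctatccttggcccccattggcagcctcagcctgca
Over the 250 bases before the start, S100a11 held 2 matches to TGANTCA, S100a4 held 1 TATAAA, and the other members with an entry held none of the 3 motifs. Among all 32851 promoters of the table at this length, 6.75% held TGANTCA, 12.6% CATTCC and 12.4% TATAAA. CG dinucleotides were counted over the full 250 bases. For some members these include bases of the annotated gene that are not shown above (8 for S100a11, 12 for S100a6 and 62 for S100a1). The number of CG dinucleotides was 2 for S100a4, 3 for S100a6, 11 for S100a11, 2 for S100b, 8 for S100a1, 13 for S100a13 and 1 for S100a16, with a median of 6 over all promoters. S100a4, S100a6 and S100a11 did not share any of these 3 motifs within this window.

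Outside the 8 members, 10 further symbols of the tables begin with S100, and 5 of them had 50 or more UMIs in the libraries together. S100a3 had 536 adherent and 170 neurosphere UMIs (log2 fold change -2.15), more in adherent cells than the 229 of S100a16, the rarest member there. S100a2 had 138 and 127 UMIs (-0.61), S100a7a had 55 and 6 (-3.68), and S100a8, an alarmin of myeloid cells, had 98 and 3, with a log2 fold change of -5.52 that rests on 3 neurosphere UMIs (-7.82 to -3.93). S100a2 lies inside S100a3 on the same strand, so their reads may be shared. S100pbp, a binding protein that is not itself an S100 protein, had 1085 and 2430 UMIs (0.67). The 66 genes of other kinds between the S100 genes of chromosome 3 were mostly silent, with 4 of them at 50 UMIs or more. These were Pglyrp3 (-1.32), Gm9774 (0.25), Crct1 (-6.88, 84 and 1 UMIs) and Gm37245 (1.26).

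Known S100 partners were read from a list of 28 genes, of which 22 had at least 50 UMIs. Of these, 3 were over 2-fold lower and 1 over 2-fold higher in neurosphere cells, against 11.7% and 21.7% of all genes, and their median log2 fold change was -0.16, against 0.32 for all genes. The 3 lower genes were Ahnak, a giant scaffold protein that S100a10 and annexin A2 bind (-2.56), Anxa2 (-1.57) and Anxa1 (-1.56), while the annexins Anxa6 (-0.56) and Anxa11 (-0.16) did not pass 2-fold. Syt1, a calcium sensor of vesicle fusion, was higher (1.49). Ager, the receptor for secreted S100 proteins, had 16 adherent and 13 neurosphere UMIs, too few to compare.

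The UMIs of a member were also set against those of its partner in each culture. These ratios follow from the summed levels of the genes, so they are no separate finding. They compare RNA counts and not bound proteins. S100a10 had 1.35 UMIs for each UMI of Anxa2 in adherent cells (1.34 to 1.37) and 0.808 in neurosphere cells (0.794 to 0.822). S100a11 had 0.936 UMIs for each of Anxa1 in adherent and 0.503 in neurosphere cells. S100a6 had 12.1 UMIs for each of Cacybp, the calcyclin-binding protein, in adherent and 2.03 in neurosphere cells. In these 3 pairs the member lay lower against its partner in neurospheres. Against Ahnak the order was the other way, with 23.7 UMIs of S100a10 for each of Ahnak in adherent (22.9 to 24.5) and 28.1 in neurosphere cells (26.1 to 30.2). S100a4 had 6.49 UMIs for each of Myh9, the heavy chain of non-muscle myosin IIA, in adherent and 0.0775 in neurosphere cells, while Myh9 itself differed little (53.3 and 45.7 CPM). Across cells S100a10 and Anxa2 had a Spearman correlation of 0.20 in adherent and 0.10 in neurosphere cells.

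Other EF-hand genes were read from a list of 34, of which 29 had at least 50 UMIs. Of these, 3 were over 2-fold lower and 4 over 2-fold higher, against 11.7% and 21.7% of all genes. Their median was 0.06, against 0.32 for all genes and -1.59 for the 8 S100 members. The lowest were Sparc, a secreted matrix protein (-2.87), Efhd1 (-2.70, 65 and 14 UMIs) and Cib1 (-1.44). The highest were Pvalb, parvalbumin (4.07, from 4 and 94 UMIs), Rcn1, a calcium-binding protein of the endoplasmic reticulum (1.30), and Stim1, the sensor of calcium stores (1.10).

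**Figure D5:**
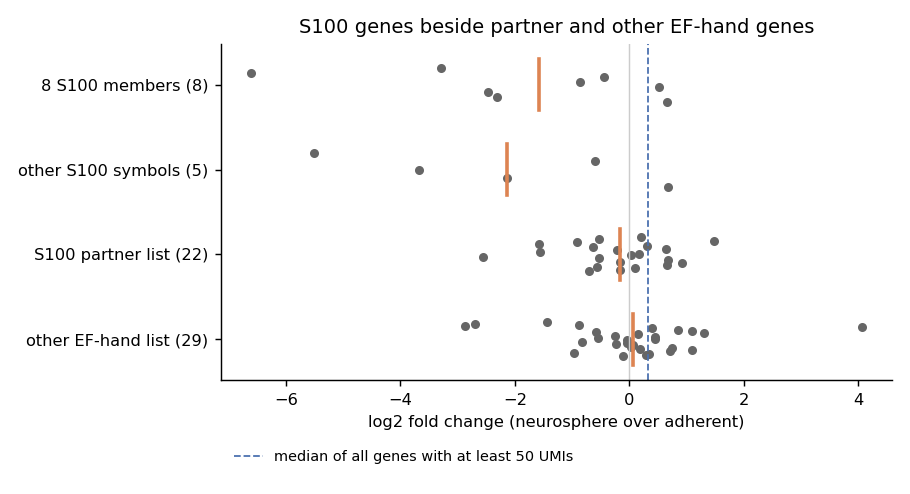
Log2 fold change (neurosphere over adherent) of each gene with at least 50 UMIs among the 8 S100 members, the 5 other S100 symbols, the 22 S100 partners and the 29 other EF-hand genes, with the median of each set as an orange bar and the median of all 14654 genes (0.32) as a dashed line. The median of the members was -1.59 and that of the partners -0.16.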

How the data were processed

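The authors deposited raw UMI counts per gene and cell for the cells called by Cell Ranger 7.0.1 (mm10, from the submitters' processing notes), 1 library per culture. The annotation and the setting for intronic reads are not given in the sources used here. The libraries held 68531063 adherent and 82832873 neurosphere UMIs. In the order of the study's Methods, 13 mitochondrial and 101 ribosomal genes were removed, then cells with under 1000 UMIs or under 1250 (adherent) or 2250 (neurosphere) genes. The study's Results name the cell filter first, and that order, an alternative here, left 5073 and 4300 cells, which are the numbers it states. No doublets were called.

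The 8 members and all gene lists were chosen with earlier results of these data known. Named were the members, other S100 symbols and locus genes with at least 50 UMIs, listed partners past 2-fold, the 3 lowest and 3 highest of the other EF-hand list, and the 5 most and 3 least alike genes by Spearman correlation. Cacybp, Myh9, Ager, Anxa6, Anxa11 and the marker genes given with values fall outside this rule and were chosen after their values were seen. CPM carried exact Poisson, log2 fold changes exact conditional and shares exact binomial 95% intervals, from Python 3.11.15 with numpy 2.4.6, scipy 1.17.1 and pandas 2.3.3. The interval code was tested on simulated data. Thinning drew 5000 UMIs per cell without replacement. Clusters came from Seurat 5.3.0 in R 4.3.3 (2000 variable genes without S100 genes, 17 adherent and 18 neurosphere PCs, resolution 1). Positions came from GENCODE vM21, where 32044 of the 32171 gene identifiers left were found. Alternatives covered the cell filter, mitochondrial share, gene removal, scaling (TMM in edgeR 4.0.16 and size factors of DESeq2 1.42.0, with no test), thinning depth and seed, cells of very high UMIs, shared barcodes and clustering.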

Additional observations from a re-analysis of the deposited data

How the results depend on the processing

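No paired analysis was possible because each culture had 1 library. All 8 members kept their direction under the 11 alternatives each was given, with log2 fold changes from -6.86 to -6.39 for S100a4, -3.54 to -3.07 for S100a6, -2.59 to -2.10 for S100a10, -2.71 to -2.24 for S100a11, -1.11 to -0.64 for S100a13 and 0.42 to 0.97 for S100b. The ranges nearest to no change were -0.69 to -0.23 for S100a1 and 0.27 to 0.74 for S100a16. The count of members over 2-fold lower was 4, and 5 (with S100a13) under TMM scaling and under DESeq2 size factors. Those scalings moved the median of all genes by -0.22 and -0.25 and the shares of genes over 2-fold lower and higher from 11.7% and 21.7% to 14.5% and 16.1% (TMM) and 15.1% and 15.4% (DESeq2). Over all genes with a UMI they were 19.1% and 28.6%. With mitochondrial and ribosomal genes in the total the median moved by 0.22 and the shares were 9.38% and 29.5%. The share of neurosphere cells with a UMI followed depth, at 0.678% for S100a4 and 37.4% for S100a6 with cells thinned to 3000 UMIs and 2.62% and 59.2% without thinning. With cells over the 95th percentile of UMIs left out, the top 10% of neurosphere cells held 73.5% of S100a6 UMIs, and S100a6 made up 70.7% of the members' UMIs in adherent cells. The 2 neurosphere clusters with the highest S100a6 level held 69.7% of its UMIs, and 72.1% at a resolution of 0.8. For S100a4 the 2 clusters with its own highest level (clusters 5 and 10) held 61.7%, and the 2 highest of each other clustering held 88.7% at a resolution of 0.8 and 90.9% with S100 genes among the variable genes. Leaving out shared barcodes, or the 2 neurosphere clusters highest in S100a6, kept the count at 4, and both were chosen after seeing the data. Counting intervals say nothing of the spread between cultures, and S100a16 and neurosphere S100a4 rest on the fewest UMIs.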

Other observations

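S100a8, whose usual partner is S100a9, was concentrated in few adherent cells. Its 98 adherent UMIs came from 33 of 5051 kept cells, the highest cell had 23, and the 5 cells with most held 59. S100a9 had 2 UMIs in all of the adherent cells. Over the 33 cells, the immune genes Ptprc, Lyz2, Cd14, Tyrobp and Csf1r summed to 2 UMIs, found in 1 cell. Over all kept adherent cells these genes had 1, 119, 206, 0 and 5 UMIs. The other genes of the immune list were not in this sum, among them Cd68 with 485 adherent UMIs. The cells fell in 7 adherent clusters, with 13 of them in cluster 4, which was led by Spp1, Nusap1 and Vgf. The median of their S100a6 levels cell by cell was 6962 CPM, and over all kept adherent cells this median was 6309 CPM. In neurosphere cells 3 UMIs of S100a8 were found in 2 cells. S100a3 was spread more widely, with 536 UMIs in 450 adherent cells and 6 in the highest.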
